A study of Mus musculus with 8 samples.

Results

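Genes of tryptophan and arginine metabolism and the receptor gene Ahr were examined in CT26 tumors, a colon carcinoma line of BALB/c mice grown under the skin of the flank. The 10 genes were Ido1, Ido2, Tdo2, Kmo, Kynu, Haao, Ahr, Nos2, Arg2 and Ass1, taken by name from the array annotation as genes that can limit T cells through either amino acid. They had 16 of the 56567 mouse probes kept and were 10 of 37058 named genes, and 12 of the 16 probes passed the filter on dim probes, with at least 1 for each of the 10 genes. Mice carried tumors from 500000 implanted CT26 cells and received, over 2 weeks, vehicle, TP-16 (labelled BY001, 75 mg/kg daily by mouth), an antibody to PD-1 (50 µg per mouse into the peritoneum, given on 2 occasions each week) or both agents together. TP-16 blocks EP4, a prostaglandin E2 receptor, and PD-1 is a receptor that restrains T cells. Each of the 4 groups had 2 samples of whole tumor RNA, described by the submitters as independent biological replicates, and each sample was read on its own one-colour Agilent array. The mice were females, 6 to 10 weeks old when bought, an age range that covers every mouse strain of the study. Whether a sample was a single tumor or a pool is not given in the sources used here.

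Tryptophan is broken down mainly through kynurenine. Indoleamine 2,3-dioxygenase (Ido1), its relative Ido2, and tryptophan 2,3-dioxygenase (Tdo2, the liver enzyme) open the indole ring, and Kmo, Kynu and Haao carry kynurenine on toward quinolinic acid and NAD. Kynurenine is a ligand of the aryl hydrocarbon receptor, the transcription factor encoded by Ahr. Arginine is split by arginase 2 (Arg2, the mitochondrial arginase) into ornithine and urea or oxidised by inducible nitric oxide synthase (Nos2), which releases citrulline, and argininosuccinate synthase (Ass1) starts the route from citrulline back to arginine. Interferon gamma is the classical inducer of Ido1 and, with bacterial products or TNF, of Nos2. Depletion of tryptophan or arginine slows T cell division, so these enzymes are known both as products of an inflamed tumor and as brakes on it.

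RefSeq promoter windows (GRCm38.p6, 250 bases before the start of transcription) were at hand for 4 of the 10 genes, Tdo2, Kmo, Haao and Ass1. Those of Kmo and Ass1, the 2 of these 4 genes that rose under the combination, are shown to set the promoters beside the expression values that follow. Capitals mark the matches to the letters searched, which were TTCNNNGAA (GAS, the interferon gamma activated site), GAAANNGAA (bound by interferon regulatory factors), GGANTTTCC (NF-kB), TGACGTCA (the cAMP response element), GCGTG (the core bound by the AhR), CACGTG (E-box) and GGGCGG (GC box) on both strands, and TATAAA on the strand of the gene. The Kmo window lies at chr1:175631943-175632192 on the plus strand and the Ass1 window at chr2:31470020-31470269 on the plus strand.
Kmo: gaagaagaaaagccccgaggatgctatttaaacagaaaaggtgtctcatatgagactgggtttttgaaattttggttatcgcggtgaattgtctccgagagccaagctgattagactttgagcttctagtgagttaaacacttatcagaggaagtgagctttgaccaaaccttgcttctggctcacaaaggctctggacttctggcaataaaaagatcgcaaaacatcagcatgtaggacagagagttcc
Ass1: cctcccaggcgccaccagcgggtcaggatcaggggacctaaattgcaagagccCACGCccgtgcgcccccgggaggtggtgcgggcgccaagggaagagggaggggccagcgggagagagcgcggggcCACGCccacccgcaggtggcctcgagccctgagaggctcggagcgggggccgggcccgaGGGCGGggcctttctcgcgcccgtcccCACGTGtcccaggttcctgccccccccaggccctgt
The Kmo window was 42.8% G and C and held no match to any of the 8 motifs. The Ass1 window was 75.6% G and C, against a median of 52.4% over all 32851 windows, and held 2 AhR cores, 1 E-box and 1 GC box. No match says only that the letters are not in this window. The GAS letters were found in 7.02% of all windows, the interferon regulatory factor letters in 7.13%, the NF-kB letters in 1.07% and the cAMP letters in 1.55%, and in 0 of the 4 windows at hand. The AhR core is short and stood in 28.2% of all windows, the GC box in 32.7% and the E-box in 6.02%. Tdo2 and Haao, which were not called in any comparison, held 1 AhR core each, and Tdo2 also 1 TATAAA, which 7.59% of all windows hold.

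Values are log2 intensities from which the 75th percentile of the same array was subtracted, so that 0 is the level of the probe at that percentile, and they are not compared between probes. A treatment was compared with another group in a limma fit of all 8 arrays. A gene was called when it changed at least 2-fold with a p of at most 0.05 after Benjamini-Hochberg adjustment. A second count used the threshold of the methods, 2-fold and an unadjusted p of at most 0.05. The share of probes well above background ranged from 51.4% to 59.7% over the arrays, and 0 were saturated. The vehicle arrays lay farthest apart, with an SD of their difference of 0.675 over the tested probes against 0.417 to 0.525 in the treated groups, and the highest share of probes above background, 59.7%, was on vehicle replicate 2. All arrays shared a slide and a scan. Arrays without the antibody filled a row of that slide and arrays with it the other row, and TP-16 was split between the left and right columns in the same way, so neither agent can be told apart from a position on the slide. The median tested probe changed by -0.202 (log2) between combination and vehicle, by -0.123 for TP-16 and by -0.0967 for anti-PD-1. After quantile normalization these medians were -0.0129, 0.0354 and -0.00924, and the share of higher genes among those called for the combination was 65% in place of 39.3%.

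Macrophage, T cell and dendritic cell markers had higher summed levels on the combination arrays than on the vehicle arrays. For comparison with the list counts that follow, 5.59% of all genes tested were called higher in the combination against vehicle and 8.62% lower. Of 9 macrophage markers 6 rose in the combination against vehicle, which became 3 with the replicate block or without any single array of the other 2 groups, 2 without vehicle replicate 1 or with no filter on dim probes, and 0 without combination replicate 2. The summed level of the macrophage list was 148 and 201 on the vehicle arrays, 179 to 222 under the single agents and 275 and 396 under the combination (in units of the 75th percentile). Of 7 tested T cell markers 3 rose, Cd2 by 3.20, Cd3e by 1.81 and Cd8a, above background on 1 of 2 vehicle arrays, by a fitted 3.76 on the log2 scale. Without vehicle replicate 1 these values were 2.48, 1.21 and 1.96, and without vehicle replicate 2 they were 3.91, 2.41 and 5.56. The summed level of the T cell list was 3.41 and 12.7 in vehicle, 17.1 to 21.6 under the single agents and 27 and 47.9 under the combination. Of 7 tested dendritic cell markers 5 rose, led by Clec9a, at least 8.81-fold (1.88 on the log2 scale after normexp correction), with summed levels of 4.79 and 4.95 in vehicle and 7.53 and 10.5 under the combination. Over the alternative settings 0 to 6 T cell and 0 to 6 dendritic cell markers were called higher. Of 7 neutrophil markers S100a8 and S100a9 were called lower, by 1.09 and 1.2, but after quantile normalization they were at -0.986 and -0.961, under 2-fold, and the list then had 1 gene higher and 0 lower. Without combination replicate 1 the list had 0 genes called, and without vehicle replicate 2 it had 2 higher and 0 lower, so no direction can be given for it. Of 8 colon epithelium markers 6 were tested, and 2 fell, the keratin Krt18 by 1.39 and the transcription factor Cdx2, which was at least 6.9-fold lower (-1.71 on the log2 scale after normexp correction). The other 4 were not called, with Krt8 at -2.68, Krt19 at -0.734, Krt20 at -0.005 and Cdh1 at 0.82, and Krt20 at 0.443 after quantile normalization. Epcam and Vil1 were not well above background on both arrays of any group. The summed level of the colon epithelium list was 74.4 and 82.8 in vehicle and 85.7 and 58.7 under the combination. Epidermis markers were high on TP-16 replicate 2 and anti-PD-1 replicate 2, with summed levels of 31.8 and 33.6 against 7.91 to 9.43 on the other 6 arrays. Skeletal muscle markers had a summed level of 13.3 on vehicle replicate 1 against 21.7 to 51.6 on the other arrays, and 0 of 7 were called. Of 7 endothelium markers 1 was called higher, and 0 with no filter on dim probes. In whole tumor RNA, fewer cells of a type and less RNA per cell cannot be told apart, and the part of these cell markers in the values of the 10 genes was not tested.

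The combination raised enzymes of both the tryptophan and the arginine routes. Against vehicle, limma called 7 of the 10 genes higher under the combination, Ido1, Ido2, Kmo, Kynu, Nos2, Arg2 and Ass1, where 14.2% of all 21497 genes tested were called and 5.59% were called higher (adjusted p). Kynu is among the 7 only through its combination arrays, since its probe was below background in the 3 other groups, and 6 were called on probes above background in both groups. Ido2 is among them by its brighter probe, while its other probe did not rise. The median of the 10 genes was 1.55 and that of all genes -0.237 (log2). That median takes in the fitted value of Kynu, and Ido2 and Tdo2, for which no direction is given. At the threshold of the methods these 7 genes were counted, against 17.1% of all genes and 6.65% in the upward direction. Both combination arrays lay above both vehicle arrays for 8 of the 10 genes, Kynu included, which held for 23.2% of all genes. For Haao the groups overlapped, and Tdo2 was below background in vehicle, so no direction can be given for it. Without combination replicate 2 the count of called genes was 0 of 10, and 0 of all 21497 genes were called. With the methods' t-test it was 0 after adjustment and 3 at the threshold of the methods.

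Under the single agents no gene of the 10 was called at adjusted p, and the medians of the 10 were lower than under the combination. Under TP-16, limma called 0 of the 10 genes at adjusted p, against 0.0558% of all genes, and 3 measured above background in both groups at the threshold of the methods (Ido1, Ido2 by its brighter probe, and Ass1). Kynu also met that threshold, for a count of 4 against 6.67% of all genes, but was below background in both groups, so its value there is no measured change. Under anti-PD-1 it called 0 at adjusted p, against 0.0744% of all genes, and also 4 at the threshold of the methods (Ido1, Ido2, Nos2 and Ass1), against 4.14%. The methods' t-test counted 1 gene for each agent at that threshold. Both TP-16 arrays lay above both vehicle arrays for 8 of the 10 genes, against 16.5% of all genes, and both anti-PD-1 arrays for 7, against 15.7%, and each count includes Kynu, which was not measured above background in these groups. The median of the 10 genes was 0.802 under TP-16 and 0.637 under anti-PD-1, with -0.15 and -0.0987 for all genes. These medians take in Kynu, which has no measured change there, and Ido2 and Tdo2, for which no direction is given. The 3 comparisons share the vehicle arrays, so a low or high vehicle value enters each of them. Without vehicle replicate 2, 3 genes were called for TP-16 at adjusted p and 2 for anti-PD-1.

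**Figure D1:**
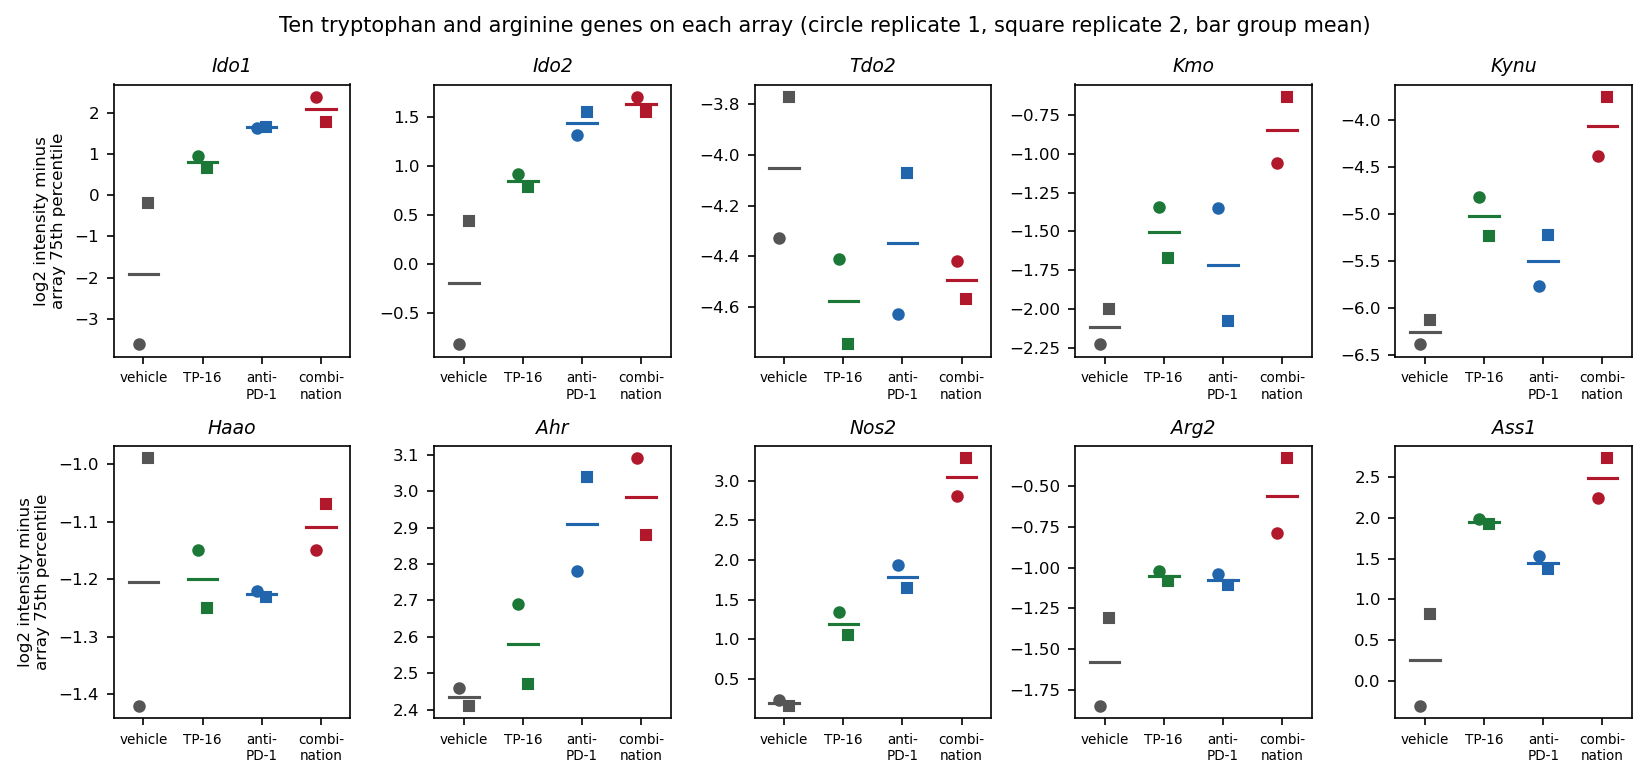
Log2 intensity relative to that array's 75th percentile (y axis, a scale of its own in each panel) for the 10 genes in the 4 groups (x axis), with circles for replicate 1, squares for replicate 2 and a bar at the group mean. Nos2 climbed from 0.16 and 0.23 in vehicle to 2.80 and 3.28 under the combination, the vehicle arrays of Ido1 lay 3.44 apart, and Kynu was well above background on the combination arrays alone.

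Ido1 rose under the combination, and Ido2 rose on 1 of its 2 tested probes. Ido1 (NM_008324, chromosome 8, 25694798 to 25694857 in mm9, the build of the array annotation) was well above background on all 8 arrays. Its level was -3.63 and -0.19 in vehicle, 0.97 and 0.67 under TP-16, 1.65 and 1.67 under anti-PD-1, and 2.4 and 1.8 under the combination. No treated array overlapped the vehicle arrays, and the order of the groups was vehicle, TP-16, anti-PD-1, combination. The rise under the combination was 4.01 on the log2 scale (SE 1.03), 16.1-fold, with an adjusted p of 0.0333 in limma. The width of that interval, 1.49 to 6.54, comes with vehicle arrays that differed by 3.44. Taken from vehicle replicate 2 alone the rise was 2.29 and from vehicle replicate 1 alone 5.73. The call was lost without either combination array, with adjusted p-values of 0.119 and 0.129, and without any single array of the other 2 treated groups, with 0.0575 and 0.0614. Under TP-16 Ido1 stood at 2.73 (SE 1.03, adjusted p 0.172) and under anti-PD-1 at 3.57 (SE 1.03, adjusted p 0.277) above vehicle in limma. Without vehicle replicate 1 these values were 1.01 and 1.85, and without vehicle replicate 2 they were 4.44 and 5.29, both then called (adjusted p 0.0173 and 0.0117). The combination exceeded TP-16 by 1.29 (interval -1.24 to 3.81) and anti-PD-1 by 0.44 (interval -2.08 to 2.97), and its arrays overlapped those of neither agent. These intervals take their width from the shared spread, to which the vehicle arrays add most for Ido1. Neither difference was called by limma, and without either vehicle array, or with the compared groups only, the one against TP-16 met the threshold of the methods (adjusted p 0.112 and 0.203).

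Ido2, which has much lower activity on tryptophan than Ido1, has a probe near the 3′ end of its transcript (NM_145949, chromosome 8, 25642518 to 25642577) that gave -0.82 and 0.44 in vehicle, 0.92 and 0.79 under TP-16, 1.32 and 1.56 under anti-PD-1, and 1.71 and 1.56 under the combination. Every treated array was above both vehicle arrays. The rise of this probe under the combination was 1.82 (SE 0.391), 3.53-fold, with an adjusted p of 0.0216 in limma, which became 0.0796 and 0.106 without either combination array. The vehicle arrays differed by 1.26, and the rise was 1.19 without vehicle replicate 1 and 2.45 without vehicle replicate 2. A second Ido2 probe did not follow the first. It lies further upstream, at chromosome 8, 25644116 to 25644175, and its 60 bases are printed because the direction of the gene depends on which probe is read.
Ido2, upstream probe: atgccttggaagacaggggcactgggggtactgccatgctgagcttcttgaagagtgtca
On that probe the values were -5.03 and -1.70 in vehicle, -4.80 and -5.80 under TP-16, -5.33 and -5.12 under anti-PD-1, and -4.38 and -4.71 under the combination. It was well above background on only 3 arrays, vehicle replicate 2 and both combination arrays. The combination stood at -1.18 against vehicle (adjusted p 0.404 in limma). With the mean over both probes it stood at 0.319 and was not called (adjusted p 0.741 in limma). No array of the single agents was above background on this probe, and neither agent was called on it (adjusted p 0.282 and 0.433 in limma). As vehicle replicate 2 is the only vehicle array measured there, and vehicle replicate 1 lay among the treated arrays, no fold is given. Which probe reads Ido2 could not be settled, so no direction is given for the gene.

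Tdo2, the dioxygenase of liver, was dim in these tumors and was not called. Its coding probe (NM_019911, chromosome 3, 81765359 to 81765418) gave -4.33 and -3.77 in vehicle, -4.41 and -4.75 under TP-16, -4.63 and -4.07 under anti-PD-1, and -4.42 and -4.57 under the combination.
Tdo2: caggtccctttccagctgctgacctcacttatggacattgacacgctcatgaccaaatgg
The probe was well above background on 4 arrays, both of the combination, TP-16 replicate 1 and anti-PD-1 replicate 2. The combination value of -0.44 (SE 0.27) had an adjusted p of 0.247 in limma, and after quantile normalization it was 0.40, so no direction can be given. Of 8 liver markers Alb, Apoa2, Serpina1a and Tat were well above background on all 8 arrays, Fgb in vehicle alone, and Apoa1, Ttr and Hpd on both arrays of no group. Fgb was called lower in the combination, at least 2.49-fold (-1.27 on the log2 scale after normexp correction), and none of the other 4 tested was called. The summed level of the list was 2.5 and 2.41 in vehicle, 1.93 to 2.49 under the single agents and 2.85 and 3.03 under the combination, whereas the median difference of the 5 tested genes was -0.898. Serpina1a stood at 1.23, Apoa2 at -0.0061, Tat at -0.898 and Alb at -1.66 against vehicle. The part of liver RNA in the Tdo2 values was not tested.

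Of the 3 enzymes after kynurenine, Kmo rose, Kynu was measured in the combination alone and Haao was not called. Kmo, the mitochondrial monooxygenase that makes 3-hydroxykynurenine, was called under the combination and not under either single agent. Its brighter probe (NM_133809, chromosome 1, 177590673 to 177590732) gave -2.23 and -2 in vehicle, -1.34 and -1.67 under TP-16, -1.35 and -2.08 under anti-PD-1, and -1.06 and -0.63 under the combination. Anti-PD-1 replicate 2 lay among the vehicle arrays, and both combination arrays lay above all 6 others. The rise was 1.27 (SE 0.29), 2.41-fold, with an adjusted p of 0.0252 in limma, and it was not called without any 1 of the 4 arrays compared (adjusted p 0.0512 to 0.139). After normexp correction the rise of the brighter probe was 0.725, under 2-fold and so not called. The other Kmo probe, not well above background in vehicle, was at least 2.2-fold higher under the combination (adjusted p 0.0328 in limma).

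Kynu, kynureninase, which cuts kynurenine and 3-hydroxykynurenine to anthranilic acids, was well above background only in the combination. Its probe (NM_027552, chromosome 2, 43538117 to 43538176) gave -6.39 and -6.13 in vehicle, -4.82 and -5.23 under TP-16, -5.77 and -5.22 under anti-PD-1, and -4.38 and -3.75 under the combination. The fitted change was 2.19 (SE 0.298) with an adjusted p of 0.0102 in limma, but the vehicle arrays give only a bound for their level, which leaves no fold. Against TP-16 the combination was at least 1.66-fold and against anti-PD-1 at least 1.03-fold higher. Normexp background correction put the change against vehicle at -0.0067 and that against anti-PD-1 at -0.12 (log2), so the bound against anti-PD-1 depends on the processing. Without combination replicate 2 the fitted change against vehicle was 1.88. The other 2 Kynu probes, of which 1 was above background on 1 array and 1 on none, were not tested.

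Haao, the dioxygenase that makes the precursor of quinolinic acid, differed little between groups. It gave -1.42 and -0.99 in vehicle, -1.15 and -1.25 under TP-16, -1.22 and -1.23 under anti-PD-1, and -1.15 and -1.07 under the combination (NM_025325, chromosome 17). All treated arrays lay between the 2 vehicle arrays. The difference between combination and vehicle was 0.0907 with a 95% interval of -0.307 to 0.489 (adjusted p 0.689 in limma), which leaves out a 2-fold change in either direction. A second Haao probe was above background on 0 arrays.

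Of the 6 other kynurenine enzymes, 5 were tested, and 0 were called higher and 1 lower in the combination. Acmsd, which diverts the pathway away from quinolinic acid, was the gene called. It was well above background in vehicle alone, at -0.79 and -3.58, and by the mean of the vehicle arrays it stood at least 6-fold below them in the combination (adjusted p 0.0131 in limma, 0.0501 after quantile normalization). From vehicle replicate 2 alone that bound is 2.28-fold and from vehicle replicate 1 alone 15.8-fold, and after normexp correction the Acmsd difference was -2.13 on the log2 scale. After quantile normalization 2 of the 5 were called higher, the aminotransferase Kyat3 (named Ccbl2 on the array), 1.07 with an adjusted p of 0.0255, and Qprt, which takes quinolinic acid on toward NAD, 1.09 with an adjusted p of 0.0468 in limma. Their differences with the 75th percentile were 0.894 and 0.849, and 2 were also called higher with the authors' log2 values and without vehicle replicate 2. The median of the 5 genes was 0.008. Outside the kynurenine route, 2 of 5 tested genes that use tryptophan or its relatives rose. Il4i1, a secreted oxidase that acts on phenylalanine and also on tryptophan, went from -1.45 and -1.54 in vehicle to 0.09 and 0.75 under the combination, with -0.33 and -0.44 under TP-16 and -0.56 and -0.84 under anti-PD-1. The 4 groups did not overlap, and the combination rise was 1.91 (SE 0.232, adjusted p 0.0102 in limma). Ddc, the decarboxylase of aromatic amino acids, rose by 1.15 (adjusted p 0.0418 in limma), 0.257 after normexp correction. Wars, the tryptophanyl-tRNA synthetase and an interferon gamma target, gave 5.17 and 5.61 in vehicle and 6.04 and 6.11 under the combination, a difference of 0.685 (adjusted p 0.0407 in limma) that is under 2-fold, and 1.09 after quantile normalization.

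Ahr was bright and changed little. It gave 2.46 and 2.41 in vehicle, 2.69 and 2.47 under TP-16, 2.78 and 3.04 under anti-PD-1, and 3.09 and 2.88 under the combination (NM_013464, chromosome 12). Both arrays of every treatment were above both vehicle arrays. The combination difference of 0.547 (SE 0.15, adjusted p 0.0403 in limma) was 1.46-fold and so was not called. Among 7 tested partners and targets of the receptor 1 rose, and 2 with quantile normalization, the authors' log2 values or without vehicle replicate 2. Ahrr, the repressor of the receptor and one of its direct targets, was at 1.67 and not called, and at 2.12 after quantile normalization (adjusted p 0.0479 in limma) but 0.284 after normexp correction. The gene that rose was Cyp1b1, a cytochrome P450 of estrogens and polycyclic compounds. Cyp1b1 gave -1.22 and -1.66 in vehicle, -0.03 and -0.94 under TP-16, 0.30 and -0.19 under anti-PD-1, and 1.30 and 1.41 under the combination, a rise of 2.80 (SE 0.341, adjusted p 0.0102 in limma). The list as a whole had a median of -0.0486, and Cyp1a1 and Cyp1a2, the most used readouts of the receptor, were not well above background on both arrays of any group.

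Of the 10 genes, Nos2 had the smallest p for the combination. Its probe (NM_010927, chromosome 11, 78773567 to 78773626) gave 0.23 and 0.16 in vehicle, 1.34 and 1.05 under TP-16, 1.93 and 1.65 under anti-PD-1, and 2.80 and 3.28 under the combination. The 4 groups did not overlap. The combination was 7.19-fold above vehicle (log2 2.85, SE 0.208, adjusted p 0.0102 in limma), and it was called in 15 of 18 alternative settings. Without combination replicate 2 the rise was 2.60 with an adjusted p of 0.065. TP-16 alone gave 0.999 (2-fold, adjusted p 0.0925) and anti-PD-1 alone 1.6 (3.02-fold, adjusted p 0.163), neither called by limma.

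**Figure D2:**
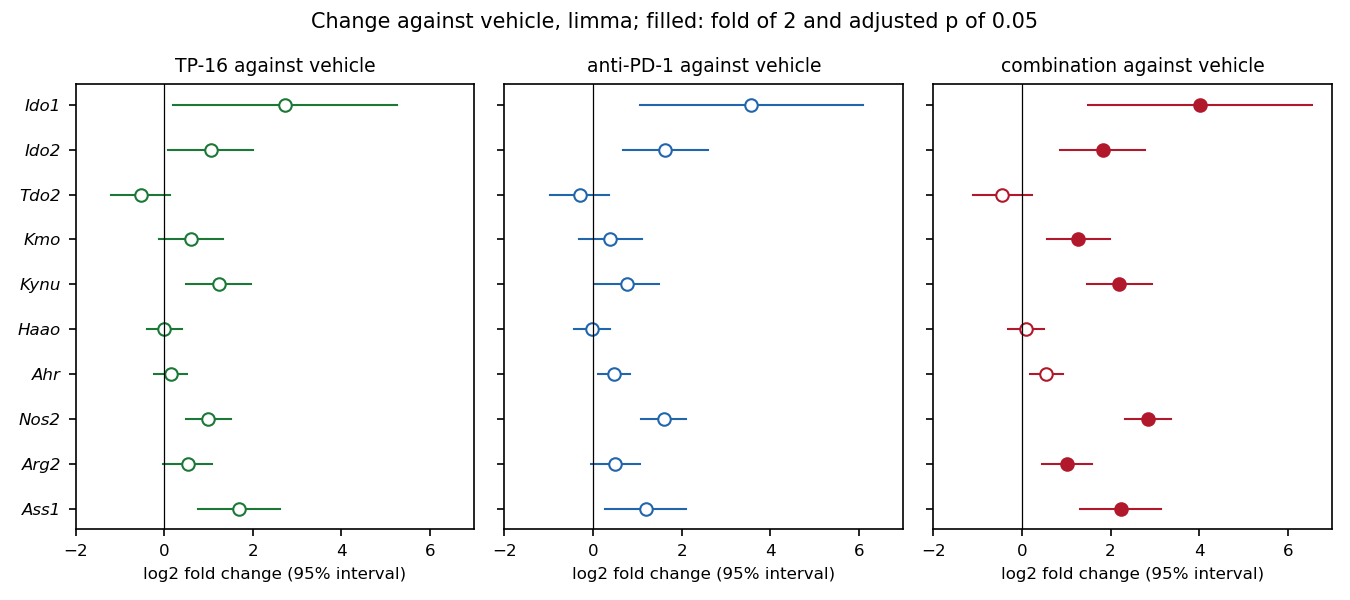
Log2 fold change against vehicle (x axis) with its 95% interval for the 10 genes (y axis) under each single agent and under both, with filled points for genes called by limma at adjusted p and a fold of 2. The 7 filled points are all in the combination panel, that of Kynu is a fitted value with no measured fold since its vehicle arrays were below background, the interval of Ido1 is the widest, and that of Haao lies around 0 in each panel.

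Nos2 was also the gene with the largest differences between the combination and the single agents among those above background on all arrays. Against TP-16 alone the combination raised it by 1.85 (SE 0.208, 3.6-fold, adjusted p 0.0841) and against anti-PD-1 alone by 1.25 (SE 0.208, 2.38-fold, adjusted p 0.0722) in limma, neither past the adjusted threshold. At the threshold of the methods Nos2 was the single gene counted of 10 against TP-16, where 4.89% of all genes were counted, and 3 were counted against anti-PD-1, where 4.72% were. Of those, 2 were above background in both groups, Nos2 and Ass1, and Kynu was below it under anti-PD-1. At adjusted p, limma called 0 of the 10 genes in both comparisons, beside 0% and 0.014% of all genes. With trended and robust moderation, or with probes above background on all arrays only, Nos2 was called in both. Whether the 2 agents together did more than their separate changes add up to was tested on log2 values as their departure from additivity. No gene of the 10 was called for it (0 of 10 at adjusted p beside 0% of all genes, 0 at the threshold of the methods beside 3.28%). As 0% of all genes were called at adjusted p, this does not show that the responses were additive. The smallest unadjusted limma p among the probes that stand for the 10 genes was 0.168, for Ido1. The upstream probe of Ido2 had an unadjusted limma p of 0.122. For Nos2 the departure was 0.252 with an interval of -0.472 to 0.976. For Ido1 the interval ran from -5.86 to 1.29, too wide to tell an additive response from a smaller or a larger one. Those of the brighter Ido2 probe (-2.22 to 0.506) and of Ass1 (-1.96 to 0.637) were also wide. The count at the threshold of the methods changed without vehicle replicate 2, and no share of all genes is at hand for that setting.

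Arg2 and Ass1 rose with Nos2. The Arg2 probe (NM_009705, chromosome 12, 80252972 to 80253031) gave -1.85 and -1.31 in vehicle, -1.02 and -1.08 under TP-16, -1.04 and -1.11 under anti-PD-1, and -0.79 and -0.33 under the combination. Every treated array was above both vehicle arrays, and the single agents could not be separated. The rise under the combination was 1.02 (SE 0.227, adjusted p 0.0235 in limma), 2.03-fold and so at the edge of the fold threshold. It was 0.718 after normexp correction, 0.753 without vehicle replicate 1 and 0.793 without combination replicate 2, none of them called. The probe is printed since no promoter was at hand for this gene.
Arg2: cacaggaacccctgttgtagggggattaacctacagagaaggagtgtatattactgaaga

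Ass1 (NM_007494, chromosome 2, 31376068 to 31376127) gave -0.31 and 0.82 in vehicle, 1.98 and 1.92 under TP-16, 1.53 and 1.37 under anti-PD-1, and 2.24 and 2.73 under the combination. Of the single agents TP-16 gave the higher values here, whereas anti-PD-1 did for Ido1, Nos2 and the brighter probe of Ido2. That difference between the agents was not tested. The rise under the combination was 2.23 (SE 0.373), 4.68-fold, with an adjusted p of 0.0125 in limma, and 1.98 with an adjusted p of 0.0838 without combination replicate 2. TP-16 gave 1.69 (adjusted p 0.0933) and anti-PD-1 1.2 (adjusted p 0.292), neither called by limma. The vehicle arrays differed by 1.13. Over the alternative settings the TP-16 value ran from 1.13 to 2.25 and the anti-PD-1 value from 0.635 to 1.76. With normexp correction Ass1 was called under TP-16 (1.62, adjusted p 0.0338 in limma). The annotation of the probe also lists a transcript of a processed copy of Ass1, so that its signal is uncertain as to source.

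The rest of the arginine and nitric oxide genes did not rise as a set. Of 12 tested, 1 rose and 1 fell, with a median of -0.335. Arg1, the cytosolic arginase of macrophages and of liver, was the gene that rose, from 2.95 and 2.66 in vehicle to 4.12 and 4.28 under the combination (1.39, SE 0.295, adjusted p 0.0211 in limma). No gene of this list was called higher without either combination array or with no filter on dim probes. Its 2 anti-PD-1 arrays were at 3.98 and 3.79, above vehicle, and its TP-16 arrays at 2.54 and 3.41, on both sides of it. Nos1, the neuronal synthase, was dim and was called lower in the combination (adjusted p 0.0184 in limma), by at least 2.33-fold from the mean of the vehicle arrays and at least 1.87-fold from vehicle replicate 1 alone. The Nos1 difference was -0.645 after quantile normalization (adjusted p 0.0955) and -0.826 after normexp correction, both under 2-fold. Nos2 needs tetrahydrobiopterin, and the 6 genes of that cofactor had a median of -0.471. Gch1, the first enzyme of its synthesis, was at 5.30 and 5.46 in vehicle and 4.82 and 4.66 under the combination (-0.642, adjusted p 0.040 in limma, -0.368 after quantile normalization). Gchfr, the protein that links Gch1 to feedback by the cofactor, fell by 1.36 (adjusted p 0.0151 in limma). Of 7 tested genes of polyamine synthesis and breakdown, the route from ornithine, limma called 0 at either threshold, with a median of -0.336.

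Of 13 tested amino acid transporters 2 rose, where 5.59% of all genes were called higher and 14.2% in either direction. Slc7a2, the cationic transporter that carries arginine into macrophages, was not well above background in vehicle (-5.07 and -4.20) and gave -3.42 and -2.79 under TP-16, -2.67 and -2.54 under anti-PD-1, and -1.93 and -1.77 under the combination. The 4 groups did not overlap, and the combination was at least 4.29-fold higher than vehicle (adjusted p 0.0102 in limma). After normexp correction the Slc7a2 difference was 0.91 on the log2 scale. Slc16a10, a carrier of aromatic amino acids, rose by 1.72 (SE 0.412, adjusted p 0.0282 in limma). The median of the transporters was 0.159. With the mean over the probes of a gene it was -0.166, and 1 transporter was called higher.

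Some genes of the response to amino acid shortage were lower under the combination. In that response Gcn2 senses uncharged tRNA and Atf4 switches on genes such as Ddit3, Trib3 and Chac1. Of the 12 genes of this list 4 fell and 1 rose under the combination, with a median of -0.834, where 8.62% of all genes were called lower and 5.59% higher. Trib3, a pseudokinase that restrains Atf4, fell by 1.56 (SE 0.16, adjusted p 0.0102 in limma), from 5.70 and 5.77 in vehicle through 5.30 and 5.15 under TP-16 and 5.08 and 5.41 under anti-PD-1 to 4.30 and 4.05. Chac1, which breaks down glutathione, fell by 1.47, and Ddit3, the stress factor CHOP, by 1.37, both with an adjusted p of 0.0102 in limma. In all 3 genes the vehicle arrays were the highest and the combination arrays the lowest. Ppp1r15a, which reverses the phosphorylation of eIF2 alpha, fell by 1.12, and is named here, like Atf4 and Ddit4, after its value was seen. Atf4 itself was not called, at -0.725, and was at 0.21 after quantile normalization, and Ddit4 was at 0.823 and 1.02. Atf3, a stress factor also induced by inflammation, rose by 1.64 (adjusted p 0.0127 in limma). After quantile normalization 3 genes fell and 2 rose, with a median of -0.438, and without combination replicate 2 none was called. These genes are also driven by other stresses. In the same comparison Krt18 was called lower and some macrophage, T cell and dendritic cell markers higher. The part of such stresses and of these markers was not tested.

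Of 15 genes that induce Ido1 and Nos2 or answer to interferon gamma, 8 were called higher in the combination and 0 lower, with a median of 1.11. Of all genes 5.59% were called higher and 8.62% lower, with a median of -0.237. The list was chosen with earlier results of these data known. Ifng gave -3.58 and -0.49 in vehicle, 0.75 and 0.00 under TP-16, 1.09 and 0.70 under anti-PD-1, and 1.67 and 2.38 under the combination (4.06, SE 0.963, adjusted p 0.0276 in limma). As with Ido1, vehicle replicate 1 was far below vehicle replicate 2, and no treated array reached down to either. Without vehicle replicate 1 the Ifng difference was 2.52. Cxcl9, a chemokine that draws T cells, rose by 3.18, and Cd274, which encodes the PD-1 ligand PD-L1, by 2.59. Their adjusted p-values in limma were 0.0497 and 0.0123. Without vehicle replicate 1 these rises were 1.58 and 1.98, and without vehicle replicate 2 they were 4.79 and 3.2. With the methods' t-test or without combination replicate 2 the count was 0 of 15, and without combination replicate 1 it was 2. In the same comparison 3 of 7 T cell, 6 of 9 macrophage and 5 of 7 dendritic cell markers were called higher. Their part in these values was not tested.

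**Figure D3:**
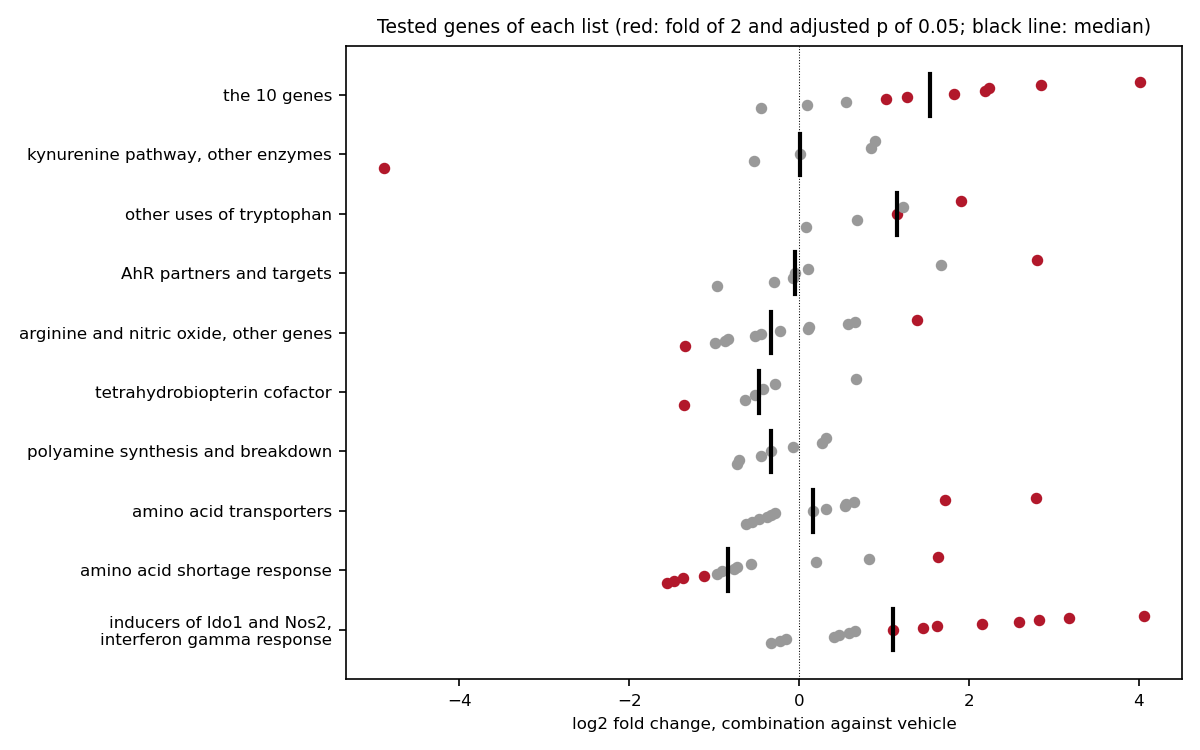
Log2 fold change of the combination against vehicle (x axis) for each tested gene of the 10 genes and of 9 lists (y axis), in red where limma called it at adjusted p and a fold of 2, with a black line at the median. The medians of the 10 genes (1.55, with the fitted value of Kynu), of other tryptophan uses (1.15) and of the interferon gamma list (1.11) lie to the right of 0. That of the amino acid shortage response (-0.834) lies to the left.

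The genes nearest in pattern to each enzyme were sought among 18316 genes well above background on all 8 arrays, by the root mean square difference of log2 values after each gene was centred on its own mean. This was done for the 5 of the 10 genes with an SD of at least 0.5 that were above background throughout. Nearest to Ido1 were Ubd (0.443), which encodes the ubiquitin-like protein FAT10, Ifng (0.464) and Gbp6 (0.479), an interferon-induced GTPase. Nearest to Ido2 were Aldh1a2 (0.17), a retinaldehyde dehydrogenase, Ly6c1 (0.18), a surface marker of monocytes and endothelium, and Irf1 (0.196). The neighbours were picked for the least difference over the same arrays, so they share the low vehicle replicate 1 of these enzymes by the way they were picked.

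Nearest to Nos2 were Dclk1 (0.114), a kinase, Cilp (0.182), a matrix protein of cartilage and fibroblasts, and Cyp1b1 (0.21). Nearest to Kmo were Rassf5 (0.108), Gp49a (0.111), a receptor of myeloid cells, and Nup210 (0.115). Nearest to Ass1 were Stat4 (0.0614), the factor downstream of interleukin 12, Naaa (0.109) and Cd7 (0.157), a protein of T and NK cells. All likeness is over 8 arrays of 4 groups, so that any gene with similar group means ranks near, and a level shared with the neighbours on any array is set by that choice.

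**Figure D4:**
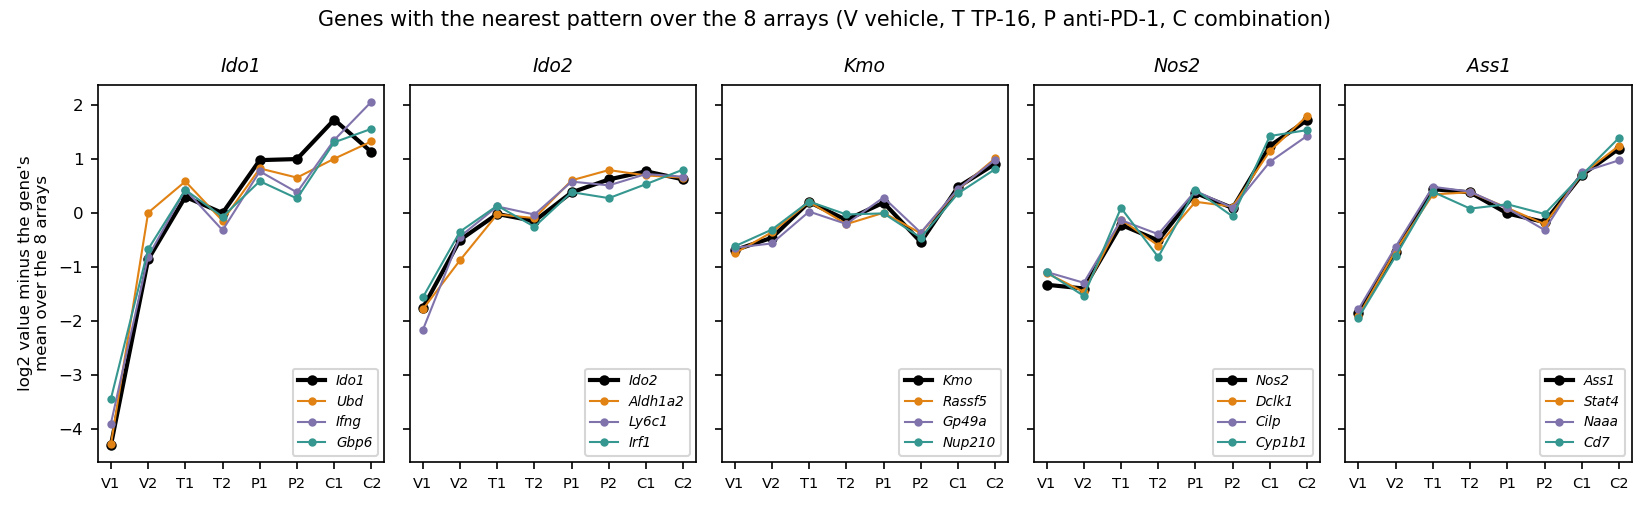
Log2 value minus the gene's mean over the 8 arrays (y axis) for Ido1, Ido2, Kmo, Nos2 and Ass1 (black) and the 3 genes nearest to each (colours), over the arrays of vehicle (V1, V2), TP-16 (T1, T2), anti-PD-1 (P1, P2) and the combination (C1, C2). Ido1 drops on V1 whereas Nos2 is lowest on both vehicle arrays, and the coloured genes follow each since they were picked for it.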

How the data were processed

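Total RNA of 8 CT26 tumor samples, 2 per group, was labelled with Cy3 and read on SurePrint G3 mouse arrays of Agilent. The methods give TRIzol for extraction and the labels a column kit. Groups, replicate numbers and doses came from the labels. The authors deposited the scanner output of Agilent Feature Extraction 10.7.1.1 (per the labels), in which spot intensities are background-subtracted and detrended, and log2 values from GeneSpring, normalized in a way not given in the sources used here. Their sorted columns differ by at most 0.00115 between arrays.

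Control spots were dropped, spots with an outlier mark were left out, and the other spots of a probe were averaged. The 38 probes with no unmarked spot on some array were dropped. The 75th percentile of each array (371.1 to 733.6 intensity units) was subtracted on the log2 scale. Tests covered probes well above background on each of the 2 arrays in some group, 31912 probes in 21497 genes, and a gene was given by its tested probe with the highest mean. The number of arrays limits the precision. A single fit of all groups was made with limma 3.58.1 in R 4.3.3, leaving 4 residual degrees of freedom. A fold that involves a group not well above background is a bound, the mean of the bright group against, on each dim array, the higher of its own value and the lowest signal well above background. The calculations were tested on simulated data. Gene names are those of the array, and positions are mm9. Promoters are from RefSeq, GRCm38.p6, and motifs were counted with Python 3.11.15.

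The 10 genes and all gene lists were chosen with earlier results of these data known. Besides the 10 genes, the text names at most 4 called genes a list, by size for the combination, and Arg1, Ifng, Gch1, Wars, Slc7a2 and Cyp1b1, and the 3 genes nearest in pattern. Ahrr, Kyat3, Qprt and the liver and colon epithelium markers not called were named after their values were seen. Alternatives were quantile normalization, normexp, 2 other filters, the mean over probes, a replicate block, the authors' log2 values, the compared groups only, trended moderation, a fold of 1.5, the methods' t-test and the omission of each array in turn. The list counts under these alternatives were added after seeing the data. A slide block could not be used, since all arrays share a slide. A gene of the interferon gamma list is not reported here by name.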

Additional observations from a re-analysis of the deposited data

How the results depend on the processing

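With 2 arrays a group, each call rests on a shared spread. For the combination against vehicle the 7 genes called at adjusted p became 4 with normexp, 3 with no filter on dim probes, and 0 with the compared groups only or with the methods' t-test. Leaving out 1 array gave 0 to 6, with 0 without combination replicate 2 and 4 without combination replicate 1. At the threshold of the methods the 7 became 4 with normexp and 3 with the t-test. For TP-16 against vehicle, 0 at adjusted p became 1 with normexp and 0 to 3 on leaving out an array (3 without vehicle replicate 2), and 4 at the threshold of the methods became 2 with normexp, 2 with the compared groups only, 1 with the t-test and 2 to 4 on leaving out an array (2 without TP-16 replicate 1 or any array of the 2 groups not compared). For anti-PD-1, 0 became 0 to 2 on leaving out an array (2 without vehicle replicate 2), and 4 became 2 with the compared groups only and 1 with the t-test. For the combination against TP-16, 0 became 1 with normexp, with probes above background on all arrays and with trended moderation, and 1 became 2 with the compared groups only, with a fold of 1.5 and without either vehicle array, TP-16 replicate 1 or combination replicate 1. For the combination against anti-PD-1, 0 became 2 with normexp and 1 with probes above background on all arrays or trended moderation, and 3 became 1 with the t-test. The departure from additivity at the threshold of the methods went from 0 to 0 to 3 on leaving out an array (3 without vehicle replicate 2). The causes were not tested, other than that smaller fits hold fewer arrays. Beside these counts no share of all genes is given, so they show only how the counts moved.

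Of 890 values of single genes under an alternative, 814 kept their direction and their side of the threshold, 38 lost the call, 13 gained one and 25 changed sign. Averaging the probes, of which 1 was below background under both agents, turned Ido2 under TP-16 (-0.445) and anti-PD-1 (-0.115). Quantile normalization and the authors' log2 values turned Tdo2 under TP-16 (0.379 and 0.386), anti-PD-1 (0.308 and 0.314), the combination (0.40 and 0.408) and the combination against anti-PD-1 (0.0924 and 0.0945). Normexp turned Kynu under TP-16 (-0.161), the combination (-0.0067) and the combination against anti-PD-1 (-0.12), Haao in the same comparisons (-0.0603, -0.025 and -0.004), and Tdo2 in the combination against TP-16 (-0.178). Leaving out an array turned Haao, with values of -0.215 to 0.219 under TP-16, -0.241 to 0.192 under anti-PD-1 and -0.126 to 0.307 under the combination, and in the combination against a single agent Tdo2 (-0.081 to 0.253 against TP-16, -0.425 to 0.137 against anti-PD-1) and Ahr (-0.0556 to 0.206 against anti-PD-1).

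Replicate numbers were shared by all groups. The deviations of same-numbered arrays correlated at -0.193 to 0.29, over 0.1 in 4 of the 6 pairs of groups, and the labels do not say that a number marks a shared batch, so the arrays were not treated as paired and a partial pairing is not excluded. With the replicate block the counts at adjusted p were 7 for the combination against vehicle and 0 for the 5 other comparisons, and at the threshold of the methods 4, 4, 7, 1, 3 and 0 in the order above, each as without it. Among the gene lists the block moved the macrophage markers from 6 to 3 higher, the interferon gamma list from 8 to 6 and the colon epithelium markers from 2 to 3 lower.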
